A study of Mus musculus with 14 samples.

Results

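Medial prefrontal cortex (mPFC) of mice that were classed as susceptible after repeated social defeat stress was compared with mPFC of naive mice. The comparison took the 11 arrays that the sample titles name as wild-type susceptible, 6 arrays, or wild-type naive, 5 arrays, out of 14 arrays in the series. All mice were wild-type C57BL/6. Susceptible mice had been exposed to repeated social defeat stress, while naive mice had only been transferred between cages. Under deep anaesthesia, 4 h after the last session, each mouse was perfused through the heart with cold D-PBS, and the mPFC was taken with a 1.5 mm biopsy punch, so that each sample holds every cell type of the punched tissue. One array was hybridised with Cy3-labelled cRNA made from 35 ng of total RNA of a single mouse, and the replicates are therefore separate mice. The labels give neither age, sex nor hour of collection, and they do not say which mice belonged to which of the independent experiments that the design mentions. The other 3 arrays are from defeated mice classed as resilient; they entered the model as a group of their own and added to the estimate of spread, and they are not described here. The question that the comparison addresses is which transcripts differ in the mPFC of susceptible mice shortly after the last defeat.

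Social defeat places a mouse in repeated contact with an aggressive mouse, and mice that afterwards avoid social contact are commonly classed as susceptible. The mPFC is a cortical region that takes part in the control of mood and of the hormonal stress response. Stress releases corticosterone from the adrenal gland, which binds the glucocorticoid receptor and so raises transcription of a known set of target genes in neurons, glia and blood vessels. Cells under demand for protein secretion induce chaperones of the endoplasmic reticulum (ER) through the unfolded protein response, and strong neuronal activity induces immediate early genes.

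Levels are given as log2 of the probe's processed intensity minus the 75th percentile of the same array, so that 0 is the brightness at the 75th percentile of the spots, and a difference of 1 is a doubling. Of the 55681 probes, 27509 could be named, for 20887 genes. Spots well above background made up 48.0% to 65.4% of each array over the 14 arrays, and no spot was saturated. The 11 arrays were spread over 3 slides, each of which held both groups, and the model carried slide as a block. On each slide the naive arrays lay in row 1 and the susceptible arrays in row 2, so that slide row and group cannot be told apart. Susceptible arrays were also brighter: the 75th percentile was 7.81 ± 0.71 (SD, n = 5) on the log2 scale in naive mice and 8.21 ± 0.61 (SD, n = 6) in susceptible mice, and the slide means were 7.30 against 7.99, 7.30 against 7.72 and 8.58 against 8.93. The labelled tissue was checked on marker transcripts: 22 of 22 listed markers of excitatory cortical neurons and 17 of 20 of inhibitory neurons were measured above background, as were 12 of 12 striatal markers.

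Of 13950 genes tested, 2285 differed between susceptible and naive mice at an adjusted p under 0.05 (limma with Benjamini-Hochberg adjustment over all genes tested), which is 16.4% of them. Among these, 1293 were higher in susceptible mice (9.27% of genes tested) and 992 were lower (7.11%). The counts of each list below are to be read against these shares, and those of several lists lie near them. Most differences were small: the median size among the genes called was 0.44 on the log2 scale, and 64 genes differed by at least 2-fold, 29 upwards and 35 downwards. The direction was the same in all 3 slides for 2267 of the 2285 genes. The values of the mice did not overlap between the groups for 587 genes (4.21% of genes tested), 349 higher (2.5%) and 238 lower (1.71%) in susceptible mice. The median difference over all genes tested was 0.02. How many genes passed depended on single mice and on how array brightness was treated. Without naive 1 the model called 820 genes, without naive 2 it called 1460, without susceptible 4 it called 838 and without susceptible 5 it called 1063. Without the arrays of slide 1 it called 3 genes, and without those of slide 2 it called 8. With each array's 75th percentile as a further covariate it called 0 genes, and 1187 had an unadjusted p under 0.05 there, against 4888 without the covariate; 2283 of the 2285 genes kept their sign, their median size was 0.34 and their median SE was 0.18 in place of 0.11. The part of brightness and of slide row in the differences described here was not tested, since both move with group. Under quantile normalization 66.8% of the genes called were higher in susceptible mice, against 56.6% here.

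**Figure D1:**
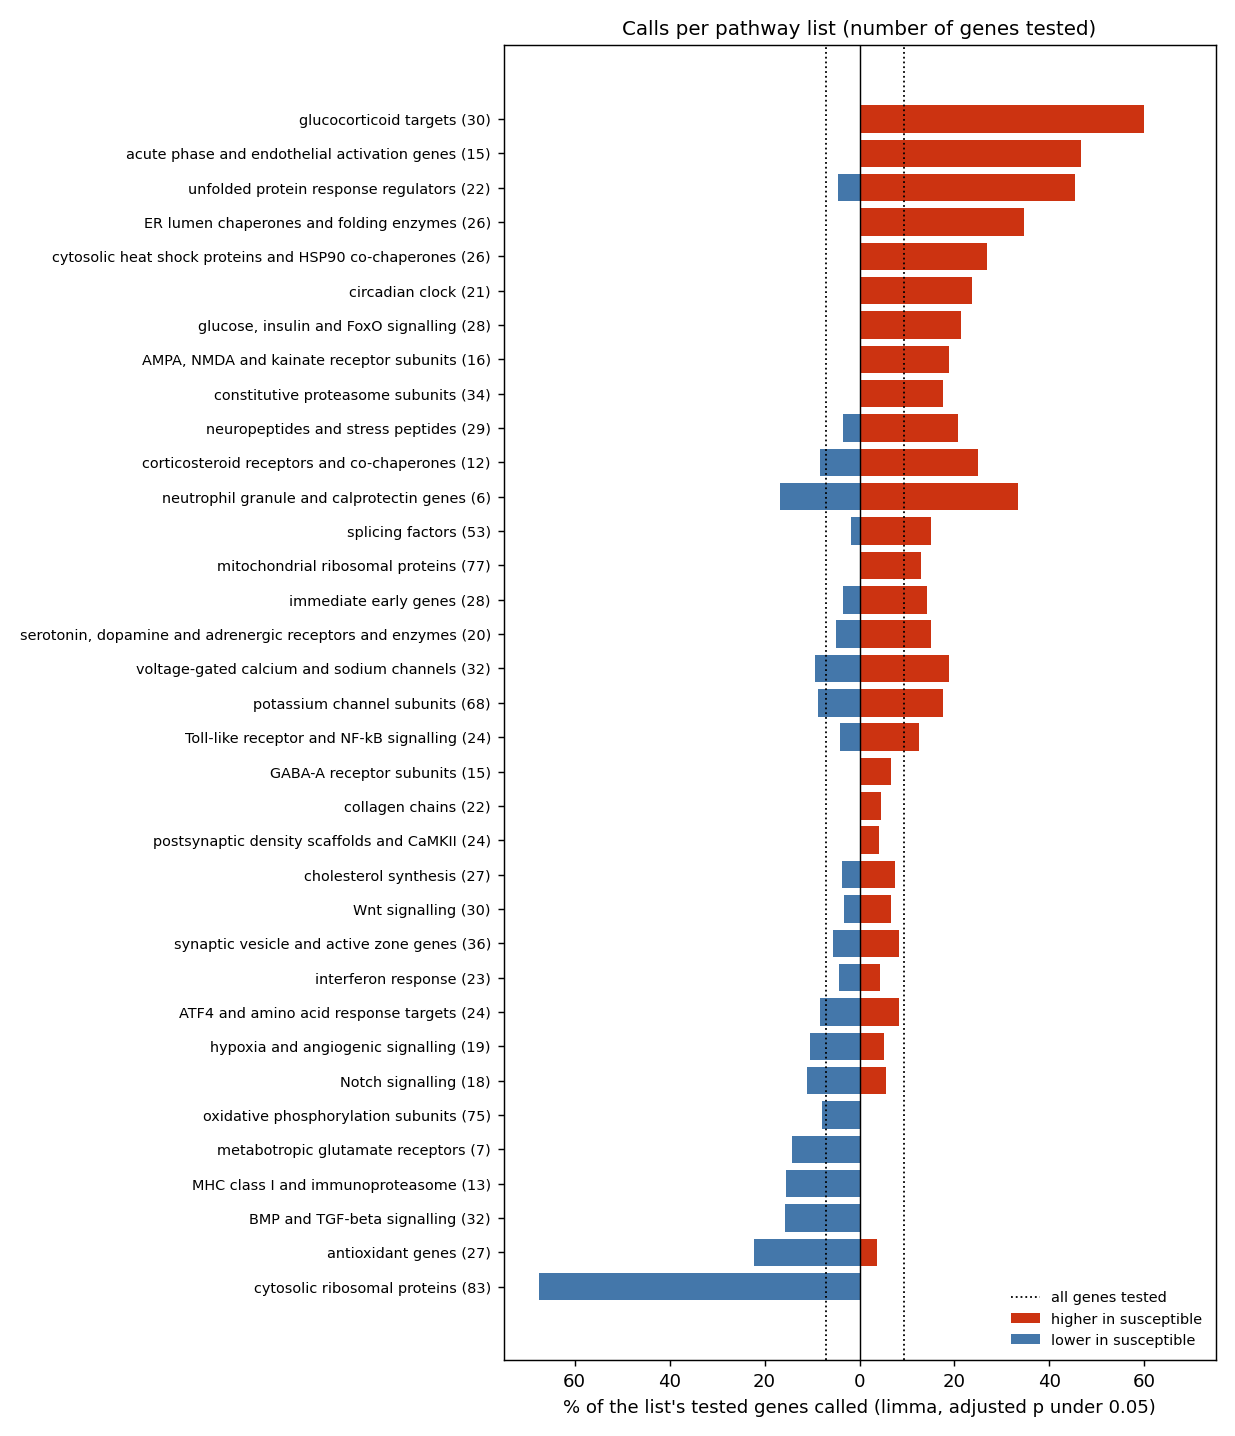
Share of the tested genes of each pathway list that were higher (bars to the right) or lower (bars to the left) in susceptible than in naive mice at an adjusted p under 0.05 (limma), with the number of genes tested in parentheses; dotted lines mark the shares over all genes tested, 9.27% and 7.11%. Glucocorticoid targets reach 60% higher, and cytosolic ribosomal proteins reach 67.5% lower, a share that fell to 12 of 83 genes under quantile normalization. The lists were chosen with earlier results of these data known.

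The largest rise among genes measured well above background in every mouse was that of Lcn2, which encodes lipocalin-2, a secreted iron-chelator-binding protein of the acute phase response. Its level was -0.75, -0.55, -0.51, -1.21 and -1.11 in the 5 naive mice, and 1.43 (lowest), 2.73 (median) and 3.48 (highest) in the 6 susceptible mice. The groups stood far apart and the difference was 3.33 ± 0.43 (SE), a 10.1-fold rise (limma adjusted p = 0.005774). Lrg1, which encodes a leucine-rich secreted glycoprotein made in inflammation, was next. Its level was -1.43, -1.97, -1.31, -1.47 and -0.66 in naive mice and -0.06, 1.04 and 1.77 (lowest, median, highest) in susceptible mice. All 6 susceptible mice lay above all naive mice, with a rise of 2.32 ± 0.36 (limma adjusted p = 0.006123).

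Other genes among the 12 largest rises were Plin4 (1.36 ± 0.24), which encodes a lipid droplet protein, and Mc4r (1.33 ± 0.23), which encodes the melanocortin receptor 4. Mc4r was -1.91, -2.14, -2.54, -2.11 and -2.40 in naive mice and -1.54, -0.80 and -0.28 (lowest, median, highest) in susceptible mice, with no overlap. Pkp2, a desmosome component, rose by 1.32 ± 0.19, and Cdkn1a, which encodes the cell cycle inhibitor p21, by 1.11 ± 0.28. Slc24a4, a sodium, calcium and potassium exchanger, rose by 0.98 ± 0.16, and its lowest susceptible value of 0.39 exceeded the highest naive value of 0.02. Alox12b, a lipoxygenase, rose by 1.15 ± 0.17; a second probe of this gene gave 0.29. Smim3, a small membrane protein, rose by 1.05 ± 0.28, with slide differences of 1.61, 0.35 and 1.44.

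Several genes rose from near the background of the array. They entered the test only through the susceptible group, in which they were high, so that a difference was a condition of their being tested, and their sizes include naive readings not above background. Tmem52, which encodes a transmembrane protein, was above background in 0 of 5 naive and 6 of 6 susceptible mice and was at least 2.72-fold higher in susceptible mice. Scgb3a1, a secretoglobin, was above background in 2 of 5 naive and 6 of 6 susceptible mice. It read -3.49, -3.05, -3.91, -3.15 and -2.89 in naive mice and -2.76, -0.23 and 1.17 (lowest, median, highest) in susceptible mice. The readings did not overlap, and the fitted difference was 2.78 ± 0.46. Further rises of this kind were those of Lao1 (1.64 ± 0.25), which oxidises amino acids, Fmo2 (1.48 ± 0.32), a flavin-containing monooxygenase, and Thsd4 (1.35 ± 0.20), an extracellular matrix protein. All 6 susceptible mice measured each of them, against 2, 3 and 2 naive mice.

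The largest falls among genes measured in every mouse included Serpind1 (-1.82 ± 0.52), which encodes heparin cofactor II, Aif1l (-1.25 ± 0.16), an actin-bundling protein, and Icam2 (-1.24 ± 0.24), an adhesion molecule of endothelial cells. Aif1l was 0.40, 0.99, 0.74, 0.78 and 0.80 in naive mice and -1.24, -0.65 and 0.09 (lowest, median, highest) in susceptible mice. All susceptible mice were lower than all naive mice. Slc38a5, an amino acid transporter, fell by 1.19 ± 0.28, Itm2a, a membrane protein enriched in brain endothelium, by 1.15 ± 0.21 and Serpinb1a, a protease inhibitor, by 1.14 ± 0.22. Prr5l, a component of mTOR complex 2, fell by 1.21 ± 0.28 and Myom3, a myomesin, by 1.13 ± 0.16. Car7, a cytosolic carbonic anhydrase of neurons, fell by 1.16 ± 0.21, with slide differences of -1.36, -1.64 and -0.54. Spem2 and Olfr1415, a sperm maturation gene and an olfactory receptor gene, fell by 1.39 ± 0.27 and 1.35 ± 0.29; what else their probes might bind in cortex was not tested.

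**Figure D2:**
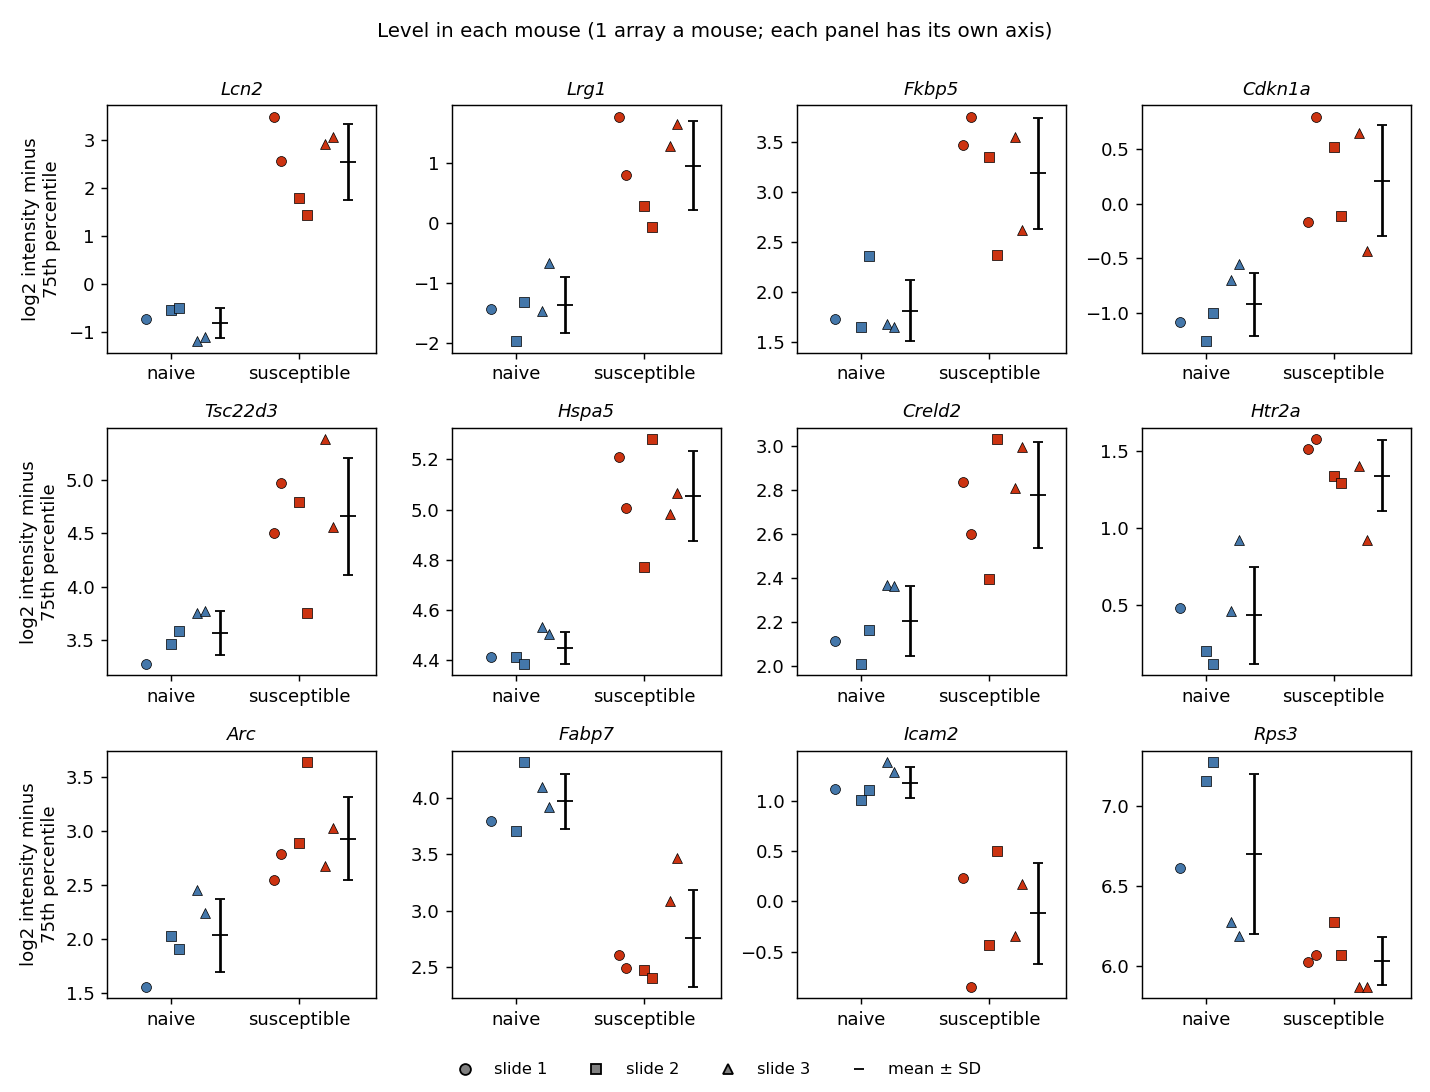
Level (log2 intensity minus the array's 75th percentile) of 12 genes in each mouse, naive in blue and susceptible in red, with marker shape giving the slide and black bars giving mean ± SD. Lcn2 lies between -1.21 and -0.51 in naive mice and between 1.43 and 3.48 in susceptible mice, while Rps3 of the ribosome overlaps between the groups and is high in the naive mice of slide 2.

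Targets of the glucocorticoid receptor had the largest share of higher genes among the pathway lists examined. Lists and members, here with Lcn2 among them, were chosen with earlier results of these data known. The share and its rank are therefore a description and not a test. Of 30 listed targets, all 30 were tested, 18 were higher (60%) and 0 lower in susceptible mice, against 9.27% and 7.11% of all genes tested, and the list's median difference was 0.64 against 0.02. It was 0.87, 0.33 and 0.50 in slides 1, 2 and 3. Leaving out 1 naive or susceptible mouse at a time gave 12 to 19 higher and 0 lower. Without slide 1 or slide 2 only 1 target passed, and with brightness as a covariate 0 passed at a list median of 0.39.

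Fkbp5, a co-chaperone that lowers the receptor's affinity for its hormone and is itself a target, was 1.73, 1.65, 2.37, 1.68 and 1.65 in naive mice. It was 2.37 (lowest), 3.41 (median) and 3.76 (highest) in susceptible mice. The lowest susceptible mouse sat just above the highest naive mouse, naive 3, and the difference was 1.31 ± 0.24 (limma adjusted p = 0.009079). Tsc22d3, which encodes the glucocorticoid-induced leucine zipper, was 3.28, 3.46, 3.58, 3.76 and 3.78 in naive mice and 3.75, 4.68 and 5.38 (lowest, median, highest) in susceptible mice. In 5 of 6 susceptible mice it exceeded every naive mouse, and it rose by 1.08 ± 0.20 (limma adjusted p = 0.009314). Zbtb16, a zinc finger transcription factor, rose by 0.89 ± 0.15 and Rhob, a small GTPase, by 0.84 ± 0.13. Mfsd2a, the transporter of omega-3 lipids at the blood-brain barrier, rose by 0.79 ± 0.15, Ddit4, an inhibitor of mTOR complex 1, by 0.67 ± 0.19 and Hif3a, a hypoxia-inducible factor subunit, by 0.80 ± 0.17. Several well-known targets did not pass: Sgk1, a kinase, differed by 0.15 ± 0.20, Mt1 and Mt2, the metallothioneins, by 0.03 ± 0.12 and 0.07 ± 0.16, and Per1, a clock gene, by 0.01 ± 0.10.

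The receptor genes themselves differed in direction. Nr3c1, which encodes the glucocorticoid receptor, was 3.54, 3.52, 3.71, 3.52 and 3.57 in naive mice and 2.91, 3.14 and 3.39 (lowest, median, highest) in susceptible mice. Every susceptible mouse was lower than every naive mouse, and the fall of 0.38 ± 0.10 passed (limma adjusted p = 0.02338). Nr3c2, which encodes the mineralocorticoid receptor, was -1.43, -1.35, -1.53, -1.44 and -1.26 in naive mice and -1.27, -1.04 and -0.55 (lowest, median, highest) in susceptible mice. Its difference of 0.38 ± 0.13 did not pass (limma adjusted p = 0.05498), although 5 of 6 susceptible mice exceeded all naive mice. Of 12 listed receptor and co-chaperone genes 3 were higher and 1 lower: the co-chaperones Fkbp4 (0.46 ± 0.11) and Stip1 (0.34 ± 0.10) rose with Fkbp5. The range with 1 mouse left out was 1 to 4 higher, the lowest without susceptible 4, and 0 or 1 lower.

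Promoters of the targets were searched for a core of the receptor's palindromic binding motif, GNACA and TGTNC with 3 free bases between them, on both strands, in the RefSeq promoter windows (250 bases before to 50 after each gene's start, GRCm38.p6). It was present in 3 of the 26 targets with a promoter sequence, or 11.5%, and in 0.45% of the 11113 tested genes with one. Among the 15 targets that were higher and had a promoter sequence, 1 held it, Map3k6, a stress-activated kinase gene, which rose by 0.87 ± 0.18 with no overlap between the groups. Its stretch is shown to let the match be read in context, with the match in capitals, from chr4:133240607-133240679 on the plus strand.
Map3k6: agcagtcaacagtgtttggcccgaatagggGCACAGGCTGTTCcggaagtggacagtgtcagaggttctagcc

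Transcripts of the acute phase response and of vessel activation also rose. Of 25 listed genes 15 were tested, 7 were higher and 0 lower, with a list median of 0.44. Besides Lcn2 and Lrg1 these were Serpina3n (1.21 ± 0.27), a secreted protease inhibitor of reactive astrocytes and liver that was above background in 4 of 5 naive mice, Socs3 (0.76 ± 0.15), the feedback inhibitor of gp130 cytokine signalling, Osmr (0.89 ± 0.23), a subunit of the oncostatin M receptor, Cebpd (0.90 ± 0.29), an inflammation-responsive transcription factor, and Ackr1 (0.44), a chemokine-binding receptor of venules. Socs3 was -1.33, -1.69, -1.36, -1.85 and -1.73 in naive mice and -1.38, -0.69 and -0.52 (lowest, median, highest) in susceptible mice. It was higher than in every naive mouse in 5 of 6 susceptible mice. With 1 mouse left out 4 to 8 genes of the list passed; the count was 4 without naive 1, naive 2, susceptible 3 or susceptible 5. The list shares Lcn2 and Cebpd with the glucocorticoid targets.

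The transcripts of calprotectin, the S100a8 and S100a9 dimer that is abundant in neutrophils, read higher in susceptible mice. The protein was not measured. S100a9 read -4.38, -2.29, -1.52, -3.47 and -3.43 in naive mice, of which 4 were above background, and -1.59, 0.76 and 2.20 (lowest, median, highest) in susceptible mice. It exceeded every naive mouse in 5 of 6 susceptible mice, and the fitted rise was 3.42 ± 0.63. The gene entered the test only through the susceptible group, and the size includes 1 naive reading not above background. S100a8 was above background in 0 of 5 naive and 5 of 6 susceptible mice, so it was not tested; it was at least 4.94-fold higher in susceptible mice. Of 18 listed neutrophil genes 6 were tested, 2 were higher and 1 lower. Camp, which encodes the cathelicidin peptide, rose by 0.35 ± 0.10. Itgam, which encodes CD11b, read lower by 0.32 ± 0.09 on its brightest probe, but its other probes gave -0.03 and -0.34. The defining transcripts Cxcr2, Mmp8, Mmp9 and Wfdc21 were above background on 0 arrays, Ngp, Ltf and Il1r2 in 0 naive and 1 susceptible mouse, and Retnlg in 0 naive and 4 susceptible mice. The mean level of the 6 tested genes was 0.92 to 1.59 in naive and 1.36 to 2.27 in susceptible mice.

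Blood transcripts moved with these genes although the mice had been perfused. Hbb-bt, an adult beta globin, was -1.87, -0.63, 0.37, 0.17 and -0.40 in naive mice and -0.56, 1.55 and 2.89 (lowest, median, highest) in susceptible mice. It was higher than in all naive mice in 5 of 6 susceptible mice, with a rise of 2.06 ± 0.62 (limma adjusted p = 0.03995). The other globins differed by 1.79 (Hbb-bs, above background in 2 of 5 naive mice), 1.65 (Hba-a2) and 1.50 (Hba-a1) and did not pass. Globin genes are near-identical copies, so that their probes may share signal. Of 8 tested erythroid genes 2 were higher and 0 lower at a list median of 1.54, which was 0.72 after normexp background correction and 0.40 with array brightness as a covariate. Without susceptible 6, 6 erythroid genes passed, and 1 passed without any other mouse except naive 4 (2). The mean level of the erythroid list was -0.71 to 0.58 in naive and 0.14 to 2.07 in susceptible mice. Of 10 tested leukocyte genes 1 was higher, S100a9, and the list median was -0.01. The part of residual blood in the calprotectin and acute phase rises was not tested.

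Genes of Toll-like receptor and NF-kB signalling showed no shared direction: of 24 tested, 3 were higher and 1 lower, with a list median of -0.04. The higher genes were Cd14 (0.60 ± 0.10), a co-receptor for lipopolysaccharide, Myd88 (0.44 ± 0.08), the adaptor of most Toll-like receptors, and Ikbkg (0.47 ± 0.12), the regulatory subunit of the I-kappa-B kinase. Tlr4 was -3.18, -3.40, -2.63, -2.27 and -3.30 in naive mice and -4.89, -3.88 and -3.17 (lowest, median, highest) in susceptible mice. The fitted fall was 0.84 ± 0.24, but a signal above background was present in all 5 naive and only 3 of 6 susceptible mice, so that Tlr4 entered the test through the naive group alone. Tlr2 was above background in 3 naive and 4 susceptible mice and was not tested, with -2.90, -3.17, -2.38, -2.35 and -2.39 in naive mice against -3.77, -3.05 and -2.42 (lowest, median, highest). Il1a, Il1b and Tnf, the classical inflammatory cytokines, were above background in 0 of the 11 mice.

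Few interferon and antigen presentation transcripts passed. Of 23 interferon response genes 1 was higher, Stat2 (0.29 ± 0.08), and 1 lower, Gbp3 (-0.91 ± 0.19), a guanylate-binding protein; the list median was -0.24, which became 0.04 with array brightness as a covariate. Of 13 genes of MHC class I and the immunoproteasome 0 were higher and 2 lower, with a list median of -0.34, which was -0.13 with that covariate. Both are immunoproteasome subunits: Psmb9 fell by 0.77 ± 0.13 and Psmb8 by 0.46 ± 0.14. Psmb9 was -0.68, -0.83, -0.53, -0.29 and -0.48 in naive mice and -1.62, -1.46 and -0.83 (lowest, median, highest) in susceptible mice. In 5 of 6 susceptible mice it was lower than in every naive mouse, and susceptible 6 lay level with the lowest of them. Constitutive proteasome subunits went the other way: of 34 tested, 6 were higher and 0 lower at a median of 0.08, led by Psmd5 (0.43 ± 0.08) and Psmd14 (0.45 ± 0.10). That count was 3 without naive 1.

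Of 28 immediate early genes tested, 4 were higher and 1 lower in susceptible mice, with a list median of 0.15. Arc, which encodes an activity-regulated protein of synapses, was 1.55, 2.02, 1.90, 2.45 and 2.23 in naive mice and 2.55, 2.83 and 3.63 (lowest, median, highest) in susceptible mice. All 6 susceptible mice exceeded all naive mice, with a rise of 0.95 ± 0.16 (limma adjusted p = 0.007227). Jun rose by 0.55 ± 0.11, and Fos and Maff by 0.81 ± 0.17 and 0.94 ± 0.28; the latter were above background in 3 and 2 of 5 naive mice. Klf4, a transcription factor that vessels also express, fell by 0.72 ± 0.21. Egr1 (0.14 ± 0.16), Nr4a1 (0.25 ± 0.14) and Bdnf (0.36 ± 0.12), further activity-induced genes, did not pass. With 1 mouse left out 3 to 6 genes were higher.

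Of 21 circadian clock genes 5 were higher and 0 lower, around a list median of 0.01. Nfil3, a repressor of D-box genes, was -0.51, -0.45, -0.78, -0.02 and -0.30 in naive mice and 0.01, 0.29 and 0.61 (lowest, median, highest) in susceptible mice. The groups just failed to touch, and the gene rose by 0.71 ± 0.12 (limma adjusted p = 0.00687). Per3 (0.75 ± 0.13), Per2 (0.47 ± 0.10), Bhlhe40 (0.61 ± 0.11) and Arntl (0.38 ± 0.09) also rose, the former pair encoding period proteins and Arntl the BMAL1 activator. Clock (-0.03) and Dbp (-0.28) did not pass. The hour of collection is not given for either group.

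Chaperones and folding enzymes of the ER lumen formed another rising group. Of 26 tested, 9 were higher and 0 lower at a list median of 0.18, and the slide medians were 0.27, 0.18 and 0.18. Hspa5, which encodes BiP, the main ER chaperone and sensor partner, was 4.41, 4.41, 4.39, 4.53 and 4.50 in naive mice and 4.77, 5.04 and 5.28 (lowest, median, highest) in susceptible mice. Naive mice lay close together, all susceptible mice lay above them, and the rise was 0.61 ± 0.10 (limma adjusted p = 0.006905). Creld2, a secreted ER stress protein, rose by 0.60 ± 0.12 without overlap between the groups. The disulfide isomerases Pdia4 (0.49), Pdia6 (0.42) and Pdia3 (0.30) rose, as did the oxidases that serve them, Ero1b (0.45 ± 0.09) and Ero1a (0.71 ± 0.12, above background in 2 of 5 naive mice; -0.07 after normexp background correction). Dnajc3, a co-chaperone of BiP, rose by 0.38, and Hyou1, an ER chaperone of the HSP110 type above background in 4 of 5 naive mice, by 1.11 ± 0.31 with uneven slide differences of 0.43, 2.12 and 0.53. Leaving out 1 mouse gave 4 to 10 genes; the count was 4 without susceptible 4 and 5 without naive 2. Without slide 1 it was 0 and without slide 2 it was 1.

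Many ER chaperone genes carry the ER stress response element, to which ATF6 binds together with NF-Y. Its letters, CCAAT and CCACG with 9 free bases between them, were searched on both strands in the same promoter windows. They were found in 8 of the 23 ER chaperone genes with a promoter sequence (34.8%) and in 18 of the 11113 tested genes with one (0.162%), a count that includes those 8. Of the 8 genes with the element 5 were higher in susceptible mice by their brightest probes, at a median difference of 0.40. Of the 15 without it 3 were higher and the median was 0.10. That contrast depends on the probe used. Second probes of Dnajb9 (0.44), Dnajc10 (0.34) and Uggt1 (0.46), which lack the element, passed (limma adjusted p under 0.05), while that of Ergic1 (0.15) did not. The second probe of Pdia6, which holds the element, gave 0.54 and passed. Calr (0.31), Hsp90b1 (0.25) and Canx (-0.10), which encode calreticulin, GRP94 and calnexin, hold the element and did not pass. The stretches of the 5 genes that rose are shown to let each match be read in context, with the element in capitals. All are on the plus strand and from RefSeq on GRCm38.p6. They were picked because their genes rose, and a link between the element and the rise was not tested. The positions are chr2:34771995-34772073 for Hspa5, chr15:88819490-88819568 for Creld2, chr13:12565652-12565730 for Ero1b, chr12:17266461-17266539 for Pdia6 and chr14:118937797-118937875 for Dnajc3.
Hspa5: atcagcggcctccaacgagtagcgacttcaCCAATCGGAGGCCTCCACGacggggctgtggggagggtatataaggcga
Creld2: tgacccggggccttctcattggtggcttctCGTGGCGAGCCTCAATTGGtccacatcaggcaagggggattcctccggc
Ero1b: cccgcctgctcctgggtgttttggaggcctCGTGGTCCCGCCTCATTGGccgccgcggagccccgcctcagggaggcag
Pdia6: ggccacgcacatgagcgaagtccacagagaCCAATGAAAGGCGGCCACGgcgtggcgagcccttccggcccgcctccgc
Dnajc3: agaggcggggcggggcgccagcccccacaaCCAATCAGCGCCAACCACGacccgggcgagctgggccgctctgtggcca
In Creld2 and Ero1b the element reads in the opposite orientation to the gene. A match describes these letters and is not a measured binding site.

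Regulators of the unfolded protein response rose with the chaperones. Of 22 tested, 10 were higher and 1 lower, with a list median of 0.19. The higher genes included the stress-activated transcription factors Xbp1 (0.31 ± 0.08), Atf4 (0.27 ± 0.08) and Atf6 (0.28 ± 0.09), Mbtps2 (0.55 ± 0.10), the protease that releases ATF6, and Derl3 (0.67 ± 0.13) and Sel1l (0.35), which serve degradation of ER proteins. Nrbf2 was -0.10, -0.23, -0.56, 0.39 and 0.51 in naive mice and 0.39, 0.53 and 0.91 (lowest, median, highest) in susceptible mice. It rose within each slide, by 0.60, 0.84 and 0.44, although the groups overlap when slides are pooled. Creb3l1, another ER-bound transcription factor, fell by 0.72 ± 0.14. The count of higher genes ranged from 3 to 10 with 1 mouse left out and fell by more than 1.5 times without every mouse except naive 5 and susceptible 6. Targets of ATF4 and the amino acid response did not share the direction: of 24 tested, 2 were higher and 2 lower, at a median of 0.07. Mthfd2, a mitochondrial folate enzyme, rose by 0.92 ± 0.18 from above background in 2 of 5 naive mice, while the cystine transporter Slc7a11 fell by 0.75 ± 0.17 and Phgdh, the entry enzyme of serine synthesis, by 0.39 ± 0.10.

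Cytosolic heat shock proteins and HSP90 co-chaperones showed 7 higher and 0 lower of 26 tested, with a list median of 0.23. Chordc1, an HSP90 co-chaperone, was 0.36, 0.38, 0.11, 0.56 and 0.64 in naive mice and 0.76, 1.12 and 1.33 (lowest, median, highest) in susceptible mice. The groups were separate and the rise was 0.68 ± 0.11 (limma adjusted p = 0.006294). Hsf2, a heat shock transcription factor, rose by 0.33 ± 0.07 and Hsph1, an HSP110 chaperone, by 0.47 ± 0.11, and Hspa1a, the inducible HSP70, by 0.77. With 1 mouse left out 3 to 12 genes passed, 3 without susceptible 4 and 12 without susceptible 3. The heat shock element, here TTC, GAA and TTC with 2 free bases after each of the first triplets, was present on either strand in 4 of the 21 promoters of this list, or 19%, and in 0.549% of those of all tested genes.

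The largest list that moved downwards was that of cytosolic ribosomal proteins, the components of the translating ribosome. Of 83 tested, 56 were lower (67.5%) and 0 higher, with a list median of -0.39; under quantile normalization 12 were lower and 1 higher and the median was -0.13, and without the slide term 2 were lower. The slide medians were -0.31, -0.69 and -0.18. Rps3 was 6.61, 7.16, 7.28, 6.27 and 6.18 in naive mice and 5.87, 6.05 and 6.28 (lowest, median, highest) in susceptible mice. It was lower than in all naive mice in 5 of 6 susceptible mice, by 0.67 ± 0.11 (limma adjusted p = 0.006438), while a second probe gave -0.12. Rps14 fell by 0.72 ± 0.14, Rpsa by 0.54 ± 0.10 and Rpl38 by 0.54 ± 0.10. Of 121 other genes at or above the median level of these genes, 42 were lower (34.7%) and 3 higher, at a median of -0.22, which was 0.11 under quantile normalization. Fewer passed without susceptible 4 (14), naive 1 (27), susceptible 3 or susceptible 5 (28 each), susceptible 1 (35) and naive 2 (36). Ribosomal protein genes have many near-identical pseudogenes, and array probes may not separate them.

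**Figure D3:**
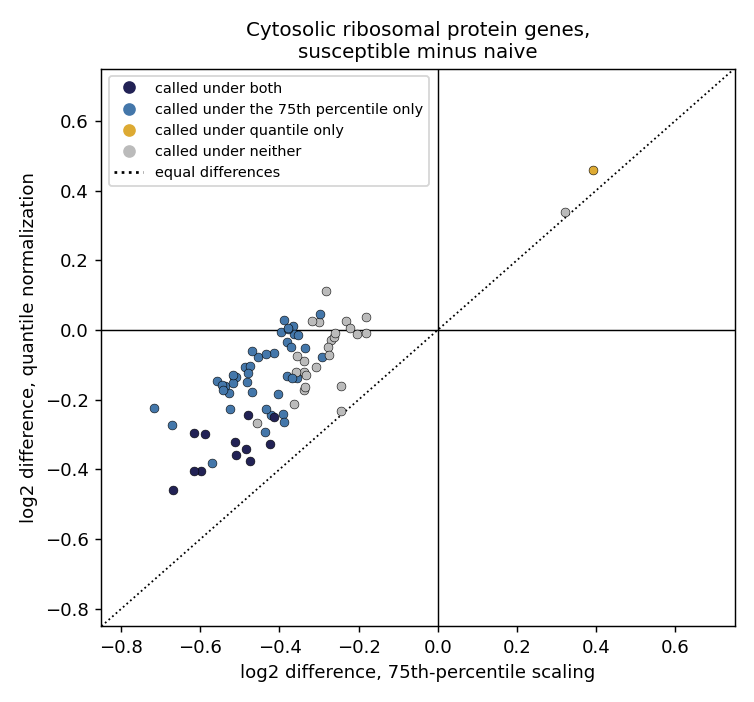
Log2 difference, susceptible minus naive, of each of the 83 cytosolic ribosomal protein genes under 75th-percentile scaling (horizontal) and quantile normalization (vertical); the dotted line marks equal differences. Nearly all points lie above that line: 12 genes passed under both scalings, 44 under the 75th percentile only, 1 under quantile normalization only and 26 under neither.

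Subunits of oxidative phosphorylation did not keep a direction across scalings: of 75 tested, 6 were lower and 0 higher at a median of -0.12, against 0 lower, 1 higher and a median of 0.04 under quantile normalization. The share that was lower, 8%, lay near the 7.11% of all genes tested. The lower genes included Cox6a1 (-0.43 ± 0.10), Cox6c (-0.51 ± 0.13) and Cox8a (-0.38 ± 0.11), subunits of cytochrome c oxidase, and Uqcrq (-0.38 ± 0.10) of complex III. Of 77 mitochondrial ribosomal proteins 10 were higher (13%, against 9.27% of all genes tested) and 0 lower at a median of 0.06, with slide medians of 0.24, -0.10 and 0.12. Mrps9 (0.36 ± 0.07), Mrps31 (0.31 ± 0.07) and Mrpl15 (0.32 ± 0.07) rose, while the probes of Mrps2 gave 0.35 and -0.29. That count was 1 without naive 1, 3 without susceptible 4, 5 without susceptible 5 and 6 without naive 5, susceptible 1 or susceptible 2. Of 53 splicing factors 8 were higher and 1 lower at a median of 0.10. Srsf10 rose by 0.50 ± 0.10 and Hnrnpc by 0.37 ± 0.09, without overlap between the groups; for Srsf3 (0.60 ± 0.13) and Srsf6 (0.45 ± 0.09) another probe gave -0.08 and -0.19. The count was 3 without naive 1, 4 without susceptible 1 or susceptible 4 and 5 without naive 2 or susceptible 5.

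Among receptors for serotonin, Htr2a and Htr4 were higher. Htr2c differed by -0.06 on its brightest probe and did not pass, and others, such as Htr1a and Htr1b, were not tested. Htr2a, the 5-HT2A receptor of cortical pyramidal neurons, was 0.48, 0.20, 0.12, 0.46 and 0.92 in naive mice and 0.92, 1.37 and 1.58 (lowest, median, highest) in susceptible mice. No susceptible mouse fell below the highest naive mouse, and the rise was 0.89 ± 0.15 (limma adjusted p = 0.007227). Htr4 rose by 1.27 ± 0.28 and Drd2, the dopamine D2 receptor, by 0.41 ± 0.10, each above background in 4 of 5 naive mice, and Maoa, the enzyme that degrades serotonin and noradrenaline, fell by 0.37 ± 0.10 without overlap. Those 4 were the only genes that passed of 20 tested in the monoamine list, whose median was -0.03. The shares were 15% higher and 5% lower, against 9.27% and 7.11% of all genes tested. Normexp background correction gave 2 higher and 3 lower, so that the balance of directions depended on it, and 1 was higher without naive 1.

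Of 29 neuropeptide transcripts tested, 6 were higher (20.7%) and 1 lower, at a median of 0.27. Pnoc, the nociceptin precursor, was -0.97, -0.72, -1.02, -0.39 and -0.27 in naive mice and -0.63, -0.32 and 0.35 (lowest, median, highest) in susceptible mice. It rose by 0.45 ± 0.10 and its receptor Oprl1 by 0.35 ± 0.10. Npy (0.55 ± 0.15) and Sst (0.54 ± 0.17), peptides of cortical interneurons, rose, as did Chgb (0.35) and Vgf (0.40), proteins of dense-core vesicles. The brightest probe of Oprm1, the mu opioid receptor, read lower by 0.32 ± 0.09. Crh, the corticotropin-releasing hormone, differed by 0.20 ± 0.15 and did not pass. The count of higher genes was 0 without naive 1, 1 without naive 2, susceptible 4 or susceptible 5, 2 without naive 3 or susceptible 2 and 3 without naive 5.

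Ionotropic glutamate receptors gave 3 higher and 0 lower of 16 tested, at a median of 0.10: Gria3 (0.40 ± 0.11), Grin1 (0.37 ± 0.12) and Grid1 (0.65 ± 0.18, above background in 4 of 5 naive mice). Of 7 metabotropic receptors 1 was lower, Grm2 (-0.28 ± 0.08). Of 24 postsynaptic density genes Nrgn, a calmodulin-binding protein, was higher (0.41 ± 0.13). Of 36 vesicle and active zone genes 3 were higher (8.33%) and 2 lower (5.56%) at a median of 0.21. Those shares lay near the 9.27% and 7.11% of all genes tested. Syp, the vesicle protein synaptophysin, rose by 0.41 ± 0.13 and Sv2b by 0.41 ± 0.09, whereas Unc13c, a vesicle priming factor, fell by 0.57 ± 0.11. All higher calls in these ionotropic, postsynaptic and vesicle lists were lost without naive 1, and the ionotropic ones also without naive 2, naive 3, susceptible 3 or susceptible 4. The postsynaptic call remained only without naive 5, susceptible 3 or susceptible 6.

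Of 68 potassium channel subunits 12 were higher (17.6%, against 9.27% of all genes tested) and 6 lower (8.82%, against 7.11%), at a median of 0.11. Kcnj10, the inward rectifier of astrocytes, was 4.26, 4.50, 4.71, 4.68 and 4.69 in naive mice and 3.72, 4.01 and 4.24 (lowest, median, highest) in susceptible mice. All susceptible mice lay below the naive mice, by 0.55 ± 0.09 (limma adjusted p = 0.006807). Its partner Kcnj16 fell by 0.40, Kcnj15 by 0.84 ± 0.11 and Kcna7 by 0.73 ± 0.15. Kcna3 rose by 0.62 ± 0.13 and Kcnq3, a subunit of the M current, by 0.59. Of 32 calcium and sodium channel subunits 6 were higher and 3 lower, among them Cacnb2 (0.63 ± 0.13) and Cacna2d3 (0.56 ± 0.10), auxiliary subunits of calcium channels, and Scn4b (-0.31 ± 0.08), an auxiliary sodium channel subunit. The higher potassium channel calls fell by more than 1.5 times, to between 3 and 7, without any mouse other than naive 3, naive 5 or susceptible 6. The higher calcium and sodium channel calls fell to 2 without naive 2 or susceptible 4 and to 3 without naive 1, naive 4, susceptible 2 or susceptible 5.

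Among metabolic lists, 6 of 28 genes of glucose, insulin and FoxO signalling were higher and 0 lower, at a median of 0.12. Slc2a3, the neuronal glucose transporter, was 2.84, 2.45, 2.26, 3.04 and 3.29 in naive mice and 3.27, 3.40 and 3.78 (lowest, median, highest) in susceptible mice. It rose by 0.68 ± 0.12, Pik3r1, a regulatory subunit of PI3 kinase, by 0.67 ± 0.13, Sesn1, a stress-inducible sestrin, by 0.52 ± 0.10 and Irs2, an insulin receptor substrate, by 0.46 ± 0.10. Of 27 antioxidant genes 1 was higher and 6 lower, at a median of -0.08 that was 0.05 after normexp background correction. Gstm1, a glutathione transferase, fell by 0.43 ± 0.12. The probes of Cat (catalase) and Hmox1 (heme oxygenase 1) were opposed in sign, with -0.46 and 0.23 for Cat and -0.89 and 0.17 for Hmox1, so that neither gene has a settled direction here. Of 27 genes of cholesterol synthesis and transport 2 were higher, Insig1 (0.41 ± 0.12) and Hsd17b7 (0.40 ± 0.11), and 1 lower, Apoe (-0.38 ± 0.10), the apolipoprotein of astrocytes. Across the alternatives the Apoe difference ranged from -0.46 to -0.006, and under quantile normalization 0 genes of this list were lower. The cholesterol shares, 7.41% and 3.7%, lay below the 9.27% and 7.11% of all genes tested. The glucose list had 3 higher genes without naive 1. The antioxidant list had 1 lower gene without naive 1, 2 without naive 2 and 3 without naive 3, susceptible 3, susceptible 4 or susceptible 5.

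Growth factor signalling of the BMP and TGF-beta families was lower in part: of 32 tested, 0 were higher and 5 lower, at a median of -0.29. Acvrl1, the ALK1 receptor of endothelium, was 0.89, 0.88, 1.12, 1.27 and 1.02 in naive mice and 0.00, 0.25 and 0.58 (lowest, median, highest) in susceptible mice. The groups did not overlap and it fell by 0.74 ± 0.15 (limma adjusted p = 0.01246). Tgfb2 (-0.38 ± 0.09), the receptors Bmpr1a (-0.39 ± 0.12) and Bmpr1b (-0.32 ± 0.10) and the latent TGF-beta binding protein Ltbp1 (-0.64) also fell. The count was 1 without naive 1, 2 or 3 without any other mouse except susceptible 1 (4) and susceptible 6 (8). Of 18 Notch genes Lfng (0.59 ± 0.16) was higher and Mfng (-0.53 ± 0.12) and Notch3 (-0.57 ± 0.16) lower, the former pair being fringe enzymes that modify Notch. Of 30 Wnt genes Fzd2 (0.74 ± 0.17) and Fzd3 (0.40 ± 0.12), Wnt receptors, were higher and Tcf7l1 (-0.66 ± 0.19) was lower. The Wnt shares, 6.67% and 3.33%, lay below the 9.27% and 7.11% of all genes tested. Of 19 genes of hypoxia and angiogenic signalling Hif3a was higher and Epas1 (-0.36 ± 0.08) and Flt1 (-0.75 ± 0.22), the VEGF receptor 1, were lower. Of 22 collagen chains 1 was higher, Col25a1 (0.54 ± 0.15; its other probes gave 0.15 and -0.04), and 0 lower, at a median of -0.28; normexp background correction gave 6 lower.

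Marker transcripts of the cell types in the punch were compared in the same model. In bulk tissue, fewer cells of a type and less RNA per cell cannot be told apart. Endothelial markers were lower: of 19 tested, 8 fell and 1 rose, at a median of -0.37 with slide medians of -0.30, -0.40 and -0.56. Icam2 was 1.11, 1.01, 1.11, 1.39 and 1.29 in naive mice and -0.85, -0.09 and 0.50 (lowest, median, highest) in susceptible mice. All susceptible mice were lower than all naive mice (limma adjusted p = 0.009314 for the fall of 1.24 ± 0.24). Transporters of the blood-brain barrier fell too, namely Slco1a4 (-0.71), Abcb1a (-0.68), Slco1c1 (-0.50) and Slc16a1 (-0.43 ± 0.09), whereas Mfsd2a, a glucocorticoid target as well, rose. Cldn5, the tight junction protein of this endothelium, differed by -0.41 ± 0.23 and did not pass. The mean level of the list was 1.45 to 1.96 in naive and 1.18 to 1.61 in susceptible mice. The number that fell was 3 without naive 1 and 4 without naive 5, susceptible 4 or susceptible 5; naive 4 gave 5.

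Pericyte and smooth muscle markers gave 0 higher and 3 lower of 16, at a median of -0.53: Atp13a5 (-0.74 ± 0.13), Higd1b (-0.48 ± 0.13) and Notch3. Meningeal fibroblast markers were negative in 18 of 18 genes at a median of -0.96, but only the transporters Slc22a6 (-0.91 ± 0.15) and Slc22a8 (-1.72 ± 0.54, above background in 4 of 6 susceptible mice) passed. Their mean level was 0.52 to 2.25 in naive and -0.86 to 1.57 in susceptible mice, a spread within each group that is wider than the difference. Of 7 markers of perivascular macrophages all were negative at a median of -0.82, and the mean level of the list was -1.23 to 0.41 in naive and -2.87 to -0.15 in susceptible mice. The 1 marker that passed, Cd209f (-1.61 ± 0.48), was above background in 5 of 6 susceptible mice and so entered the test only through the naive group. The related lectin Cd209a, measured above background in 3 of 6 susceptible mice, fell by 1.77 ± 0.57. Colec12, a scavenger receptor, and Ttr, the choroid plexus transthyretin, measured above background in 4 and 3 of 6 susceptible mice, fell by 1.22 ± 0.37 and 1.65 ± 0.44. How much meninges and vessel each punch held is not known, and its part in these and in the BMP, Notch and hypoxia results was not tested.

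Astrocyte markers were lower in part: of 22 tested, 7 fell and 0 rose, at a median of -0.23 with slide medians of -0.23, -0.37 and -0.18. Fabp7, a brain fatty acid binding protein, was 3.80, 3.71, 4.32, 4.10 and 3.92 in naive mice and 2.40, 2.55 and 3.47 (lowest, median, highest) in susceptible mice. It was lower in every susceptible than in every naive mouse, by 1.17 ± 0.15 (limma adjusted p = 0.005774). Aldoc, a glycolytic aldolase, fell by 0.53 ± 0.10, S100b by 0.60 ± 0.13, Ndrg2 by 0.53 ± 0.12 and Sox9, a transcription factor of astrocytes, by 0.52. The glutamate transporters Slc1a2 (-0.06 ± 0.10) and Slc1a3 (-0.26 ± 0.11), the water channel Aqp4 (-0.39 ± 0.14) and Gfap (-0.40 ± 0.20) did not pass on their brightest probes. A second probe of Aqp4 gave -0.50 and passed (limma adjusted p = 0.04545). A second probe of Gfap gave -0.54 and did not pass, and other probes of Slc1a2 gave -0.0008 and 0.17. The mean level was 3.64 to 3.89 in naive and 3.38 to 3.79 in susceptible mice. Without naive 1 or susceptible 4 only 3 fell, without susceptible 1, 3 or 5 only 4, and quantile normalization also gave 4.

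Oligodendrocyte markers gave 0 higher and 2 lower of 16, at a median of -0.43: Aspa (-1.03 ± 0.22), the enzyme that splits N-acetylaspartate, and Mog (-0.37 ± 0.11), a myelin surface protein. The slide medians of -0.06, -0.74 and -0.38 were uneven, and the myelin gene Mbp (0.07 ± 0.10) did not pass. Among 11 markers of oligodendrocyte precursors Gpr17 was higher (0.54 ± 0.10) and Nkx2-2 lower (-0.39 ± 0.12). Microglial markers had a median of -0.01 over 20 genes (0.03 after normexp background correction and 0.12 with array brightness as a covariate), with 0 higher and 3 lower, against 4 higher and 3 lower after normexp. Aif1, which encodes IBA1, fell by 0.58 ± 0.14 and Gpr34 by 0.73 ± 0.19, while for Siglech (-0.50 ± 0.15) a second probe gave -0.16. P2ry12 (-0.24 ± 0.16), Cx3cr1 (-0.18 ± 0.16) and the complement gene C1qa (0.25 ± 0.12) did not pass.

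Of 22 excitatory markers 2 were higher (9.09%, against 9.27% of all genes tested) and 1 lower (4.55%, against 7.11%). Their median was -0.02 (0.05 after normexp background correction). The higher genes were Lamp5 (0.62 ± 0.15) and Nrgn, and the lower gene was Neurod6 (-0.30 ± 0.09). Of 17 inhibitory markers 4 were higher and 0 lower at a median of 0.21, with 14 positive differences and slide medians of 0.17, 0.26 and 0.15. Gad1, the enzyme that makes GABA, rose by 0.39 ± 0.12, along with Npy, Sst and Lamp5, while Pvalb, the marker of fast-spiking interneurons, differed by 0.05 ± 0.14 and did not pass. The list shares Npy and Sst with the neuropeptides and Lamp5 with the excitatory markers. The mean level of the inhibitory list was 0.80 to 0.97 in naive and 0.97 to 1.14 in susceptible mice. The 4 inhibitory calls fell to 0 without susceptible 4, to 1 without naive 1, naive 3 or susceptible 5 and to 2 without naive 2 or susceptible 3. Of 12 striatal markers Drd2 was higher and Adora2a, an adenosine receptor of striatal projection neurons, lower (-0.46 ± 0.07). Adora2a was -0.79, -0.76, -0.87, -0.98 and -0.81 in naive mice and -1.36, -1.32 and -1.14 (lowest, median, highest) in susceptible mice, with no overlap.

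**Figure D4:**
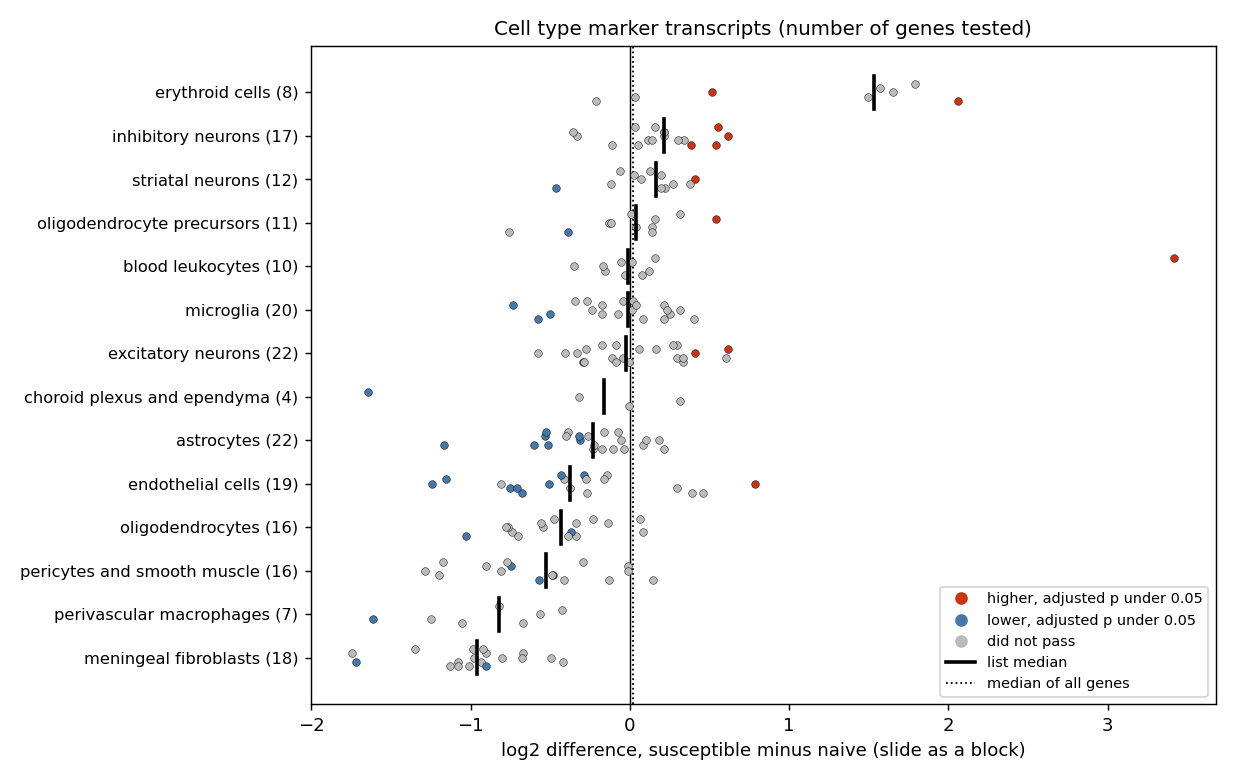
Log2 difference, susceptible minus naive, of each tested marker gene of 14 cell types, with the number tested in parentheses, list medians as black bars and the median of all genes as a dotted line. Vascular, meningeal, macrophage and astrocyte markers lie mostly left of 0 (medians of -0.37, -0.53, -0.96, -0.82 and -0.23 for endothelium, pericytes, meninges, perivascular macrophages and astrocytes), and erythroid genes lie right of it (1.54, or 0.40 with array brightness as a covariate).

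Among the lists plotted by slide, which are a selection of those described, most directions were shared between slides. Medians of the glucocorticoid, ER chaperone, unfolded protein response, heat shock, neuropeptide and inhibitory neuron lists were positive in each of the 3 slides. Those of astrocytes, endothelium, pericytes, meninges, oligodendrocytes, interferon response, MHC class I, BMP signalling and ribosomal proteins were negative in each. Oxidative phosphorylation was the exception among the lists plotted, with 0.08, -0.34 and -0.03. Several lists that were not plotted also changed sign between slides. Among them were mitochondrial ribosomal proteins (0.24, -0.10 and 0.12), antioxidant genes (0.01, -0.25 and 0.00), microglia (0.06, 0.10 and -0.15) and excitatory neurons (-0.04, 0.09 and -0.05). Others kept their sign, such as the acute phase list (0.36, 0.26 and 0.39). The slides hold different mice, and slide 1 rests on a single naive mouse, naive 1.

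**Figure D5:**
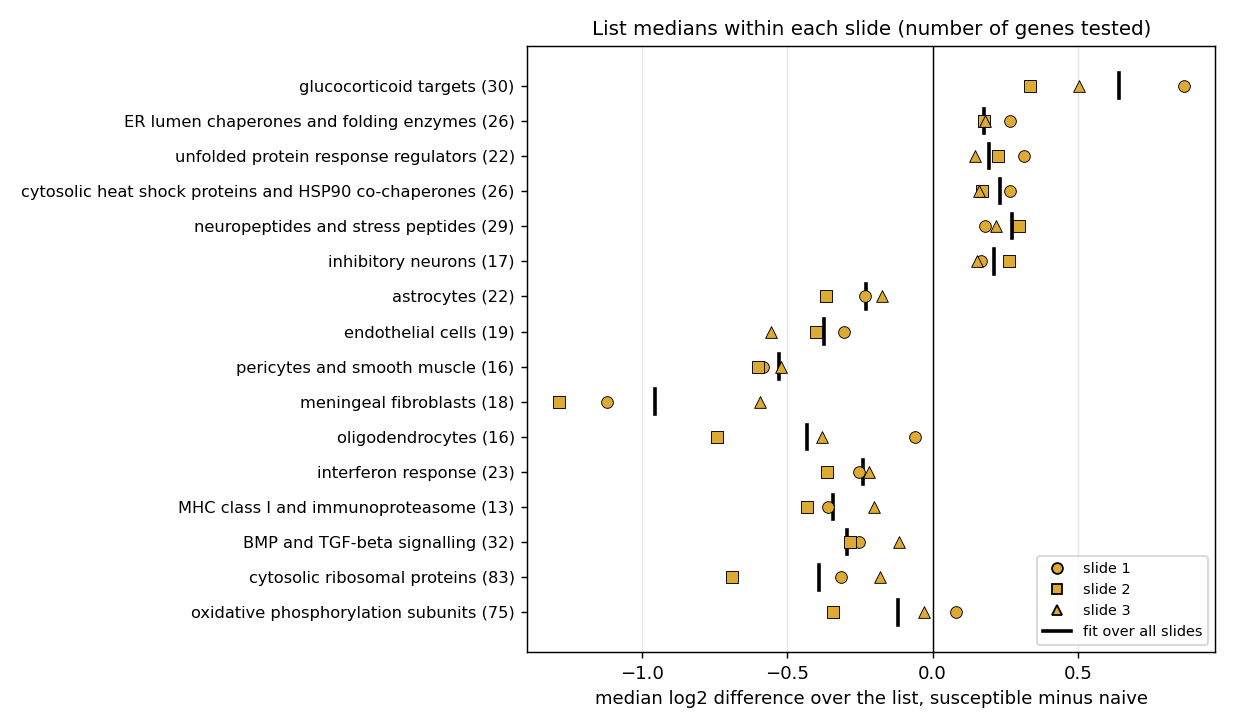
Median log2 difference over each list, susceptible minus naive, within slide 1 (circles), slide 2 (squares) and slide 3 (triangles), with the median from the fit over all slides as a black bar. Glucocorticoid targets are positive in every slide (0.87, 0.33 and 0.50), and oxidative phosphorylation subunits change sign between slides and become 0.04 under quantile normalization.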

How the data were processed

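Arrays were Agilent 1-colour mouse arrays read by Agilent Feature Extraction 11.0.1.1, per the submitters' processing notes. The authors deposited each array's scanner table, whose processed Cy3 intensity is background-subtracted on a linear scale, per the file headers. The authors' deposited value table is on a log2 scale and differs from log2 of these intensities by a constant per array (r = 1), with column medians of -3.08 to -2.73; its centring is not stated. Here log2 of the processed intensity minus each array's 75th percentile over non-control spots was used, without spots flagged as outliers. Spots of 1 probe were averaged, and 27509 probes were named by RefSeq accession (GRCm38.p6) while 28172 were not. Genes were tested through their brightest probe where it was well above background on all naive or all susceptible arrays; 6 genes were left out for outlier spots. The model was limma 3.58.1 in R 4.3.3 (lmFit, eBayes) over 3 groups with slide as a block, 9 residual degrees of freedom, called at an adjusted p under 0.05; figures used Python 3.11.15 and matplotlib 3.10.9. It was tested on simulated data.

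Bounds written "at least" compare the bright group's mean with the lowest signal well above background, or the probe's own where higher. Named genes were the 12 largest rises and falls above background in all mice, the 6 largest each way partly at background, up to 4 called genes with the smallest p per list (2 where none was called), and 14 genes by name, with predicted gene symbols skipped among the largest changes; members named beyond these were chosen after their values were seen. Members and lists were chosen with earlier results of these data known. Of 39 named genes with several tested probes, 29 had all probes of 1 sign. Alternatives were no slide term, random slide block, scan day, 11 arrays only, quantile normalization, normexp on median spot intensity (offset 50), other filters, probe means, the authors' values, trend and robust settings, a stricter threshold, a replicate block and leaving out each mouse. Leaving out a slide and adding array brightness were chosen after seeing the data. Some list members are not reported here by name.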

Additional observations from a re-analysis of the deposited data

Results flagged for a closer look

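Among 346 group-wise checks of 173 named genes, 6 found 1 mouse far from the rest of its group; chance alone marks about 1 in 20 groups. In naive 3, Fkbp5 was 2.37 against 1.73 in the next naive mouse, Apoe was 8.85 against 8.55, and Srsf3 was 1.46 against 2.05, so that 3 of the 6 fall on this mouse. In susceptible 6, Psmb9 was -0.83 against -1.36 in the next susceptible mouse and Tmem52 was -3.02 against -2.08. In susceptible 1, Adora2a was -1.14 against -1.31.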

How the results depend on the processing

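The count of 2285 genes (1293 higher, 992 lower) was 383 (237 and 146) without the slide term, all of them among the 2285, 756 (416 and 340) without the filter on dim probes, 249 (134 and 115) at an adjusted p under 0.01 and 3452 (2116 and 1336) with normexp; 860 were higher with the 11 arrays alone. Leaving out 1 mouse gave 820 to 2902 genes, 423 to 1623 higher and 377 to 1279 lower. Without slide 1 there were 3 (2 and 1), without slide 2 there were 8 (4 and 4), without slide 3 there were 1561, and with array brightness 0 (0 and 0). The cause of these shifts was not tested, beyond the fewer arrays and the stricter threshold. With the replicate block in place of slide 1813 genes passed, 842 higher and 971 lower; correlations of same-numbered mice were 0.398, 0.523, 0.003, -0.395 and 0.719, so that not every pair passed 0.1 and the numbers were not taken to pair the mice. Under that block 12 meningeal, 9 pericyte, 10 BMP and TGF-beta, 7 interferon and 5 collagen genes were lower, against 2, 3, 5, 1 and 0. The other alternatives, random slide block, scan day, quantile normalization, the filter on all 11 arrays, probe means, the authors' values and trend and robust settings, gave 1864 to 2613. Of 167 named genes called, 88 stayed called with each mouse left out and 0 under all alternatives, since brightness ended each call. Signs turned for Cox6a1 (0.0007) and Cox8a (0.013) under quantile normalization, Ero1a (-0.07) under normexp, Nkx2-2 (0.019) with brightness, and Hmox1, through another probe, with normexp (0.086), without naive 1 (0.151), naive 2 (0.131) or slide 2 (0.112); it was -0.986 without susceptible 6. A fold is a bound only where a probe was above background on 0 arrays of a group; 967 genes were tested only through the susceptible and 119 only through the naive group, and their sizes include readings not above background.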
